A study of Mus musculus with 6 samples.

Results

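The 6 STAT genes Stat2, Stat3, Stat4, Stat5a, Stat5b and Stat6 encode signal transducers and activators of transcription. They are the listed members of the family, matched by gene name with no threshold on a measured value, and are 6 of the 16254 genes in the count table. All 6 passed the filter on low counts and were among the 13498 genes tested.

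The study asked how extracellular vesicles (EVs) from activated Th2 cells, a helper T cell type of allergic inflammation, change gene expression in eosinophils. Eosinophils were grown from the bone marrow of young adult C57BL/6 mice, first with FLT3 ligand and stem cell factor and then with IL-5. All cells were therefore unmodified and had been raised on IL-5, itself a cytokine that signals through STAT proteins. Cells were treated for 24 h with 5000000000 EVs per ml, isolated from the medium of restimulated Th2 cells by size exclusion chromatography and ultrafiltration. The sham group received medium that no T cell had conditioned and that was taken through the same isolation. No cytokine is described as added to the sequenced cells of either group during the treatment. In separate assays the study reported that such EVs raised eosinophil survival and lowered apoptosis, compared with cells given neither cytokine nor EVs. Survival in the sequenced samples is not given. The part of dying cells in the differences between the groups was not tested. Each group had 3 replicates. The labels call them biological replicates without saying whether they came from separate mice or cultures, so the p-values measure the spread between these samples. RNA was sequenced in bulk, so that a change in the number of cells of one type and a change in RNA per cell cannot be told apart.

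STAT proteins wait in the cytoplasm until a cytokine receptor is engaged. Receptor-bound Janus kinases (JAKs) then phosphorylate them, and the paired STATs enter the nucleus and bind DNA. STAT5A and STAT5B act downstream of IL-5, IL-3 and GM-CSF, STAT6 downstream of IL-4 and IL-13, STAT3 downstream of IL-6 and IL-10, STAT4 downstream of IL-12, and STAT2 downstream of interferons together with IRF9. Only mRNA was measured here, and phosphorylation is not read by it.

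Total counts per library ran from 23697620 to 37874426. Without scaling, the 6 genes together took 0.0891% to 0.0944% of each sham library and 0.0842% to 0.0865% of each EV library. Eosinophil markers, among them the granule protein genes Epx and Prg2, summed to 882772 to 1116300 normalized counts in sham libraries. In EV libraries they summed to 1246100 to 1404800, and 6 of the 9 rose. The 3 that did not were Prg2 (mean 634580 in sham and 742952 in EV, log2 fold change 0.23), Prg3 (0.04) and Il5ra (-0.14). Macrophage markers summed to 19224 to 32990.4 in sham and 6412 to 8897 in EV, and 7 of the 8 tested fell. Basophil and mast cell markers summed to 4510.0 to 5943 in sham and 11569 to 13678 in EV, and 5 of the 7 tested rose. Neutrophil markers summed to 15861 to 18453 in sham and 17380.0 to 20736.7 in EV, with 2 of 8 higher and 4 lower. Rose and fell refer to an adjusted p under 0.01 in the test described below. Of all genes tested, 12.1% rose and 11.6% fell. T cell markers summed to 839.8 to 1240.2 in sham and 929.98 to 996 in EV, B cell markers to 152 to 162 and 171 to 183, and dendritic cell markers to 63.7 to 123 and 85.3 to 103. None of these lists was at 0 in all libraries. Of the 9 T cell markers in the table, Cd3d was at 38.3 in sham and 48.4 in EV, and Cd4, Cd3g, Trac, Lck and Cd5 had group means between 0 and 16.3 normalized counts. Cd28 fell from 559 to 42.4, and the cytokine genes Il4 (437 to 837) and Il13 (1.20 to 33.9) rose. The part of other cell types in the results for the STAT genes was not tested.

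Of the 6 STAT genes, Stat2 and Stat3 were higher in EV-treated eosinophils and the other 4 did not pass. The test was edgeR's quasi-likelihood test, Benjamini-Hochberg adjusted over all genes, with a threshold of 0.01. Both changes were small: Stat2 rose by 39.6% and Stat3 by 23.0%. Among all genes tested, 23.7% passed, 12.1% as higher and 11.6% as lower, and 9.45% passed with a log2 change of 1 or more in size, which no STAT gene reached. Thus 2 of 6 is a count to be read against a large background. With scaling by library size only, the higher and lower calls over all genes were 1036 and 2342, against 1632 and 1572 with TMM scaling, and the median log2 fold change of all genes was -0.16 rather than -0.01. The median log2 fold change of the 6 STAT genes was 0.14. The EV and sham libraries did not overlap for 2 of the 6 STAT genes, with EV higher in both, against 49.6% of all genes tested, or 24.8% counting those with EV higher.

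**Figure D1:**
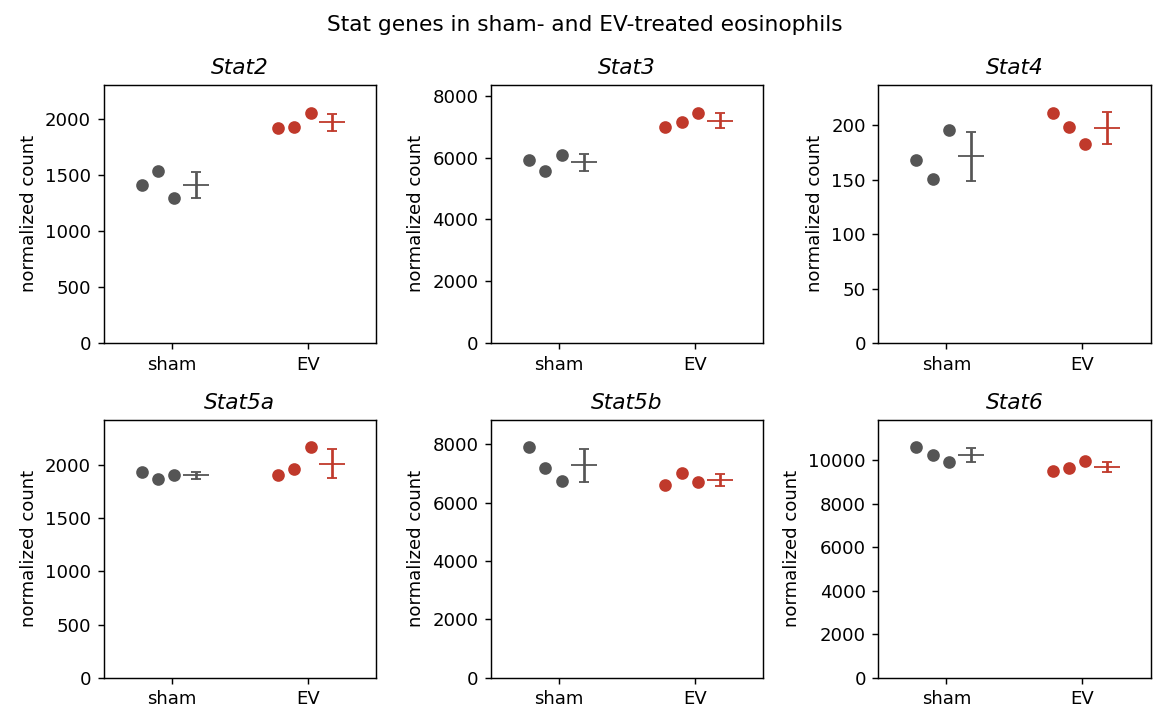
Normalized count of each STAT gene (vertical axis, from 0) in the 3 sham and 3 EV libraries, with points for libraries and bars for the mean and SD. All EV points lie above all sham points for Stat2 and Stat3, and the groups overlap for Stat4, Stat5a, Stat5b and Stat6.

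Stat2 encodes the partner of IRF9 in the complex that binds interferon-stimulated response elements. Its normalized counts were 1408, 1529 and 1292 in sham replicates 1 to 3 and 1920.2, 1929 and 2055 in EV replicates 1 to 3. Every EV library was above every sham library. The means were 1409.8 ± 119 in sham and 1968 ± 75.3 in EV (SD, n = 3 each). The log2 fold change was 0.48 (SE 0.08, 95% interval 0.30 to 0.66), with an edgeR adjusted p of 0.000996. In percent the interval ran from 23.4% to 57.9% higher. Stat2 passed in all 15 alternatives run on it, with log2 fold changes from 0.33 to 0.54. Among these, the adjusted p under 0.05 reused the main fit, and summing Stat5a and Stat5b left the Stat2 counts unchanged. Neither was a separate check of Stat2.

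Stat3 encodes a factor shared by many cytokine receptors, including those that signal through gp130. Its normalized counts were 5919, 5558 and 6089 in sham replicates 1 to 3, and 6983, 7153 and 7463 in EV replicates 1 to 3. The lowest EV library was above the highest sham library. The means were 5855 ± 271 and 7199.5 ± 243 (SD, n = 3 each), a log2 fold change of 0.30 (SE 0.06, 95% interval 0.16 to 0.43, edgeR adjusted p = 0.00329). The percent interval was 12.1% to 34.9% higher. The call for Stat3 was lost without sham replicate 2 (adjusted p = 0.0111), without EV replicate 2 (adjusted p = 0.0160), without EV replicate 3 (adjusted p = 0.0209) and with scaling by library size only (log2 fold change 0.15, adjusted p = 0.0577). Its log2 fold change stayed above 0 in each of these.

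The 2 genes that rose have promoters that can be set side by side, because STAT complexes bind short DNA motifs that can be looked for there. The 250 bases before the RefSeq start (GRCm38.p6) are shown 5′ to 3′ in the direction of transcription. They lie at chr10:128270248-128270497 on the plus strand for Stat2 and at chr11:100939541-100939790 on the minus strand for Stat3. Capitals mark matches to any of 3 motifs: the GAS element TTCNNNGAA, the spacing variant with TTC and GAA set 4 bases apart, which STAT6 prefers, and the core of the interferon-stimulated response element, 2 copies of TTTC or of GAAA set 2 bases apart. Both strands were searched.
Stat2: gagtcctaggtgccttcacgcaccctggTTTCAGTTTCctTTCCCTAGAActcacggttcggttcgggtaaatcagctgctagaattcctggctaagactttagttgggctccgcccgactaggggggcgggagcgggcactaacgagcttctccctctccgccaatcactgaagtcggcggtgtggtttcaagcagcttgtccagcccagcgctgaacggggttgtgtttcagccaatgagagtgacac
Stat3: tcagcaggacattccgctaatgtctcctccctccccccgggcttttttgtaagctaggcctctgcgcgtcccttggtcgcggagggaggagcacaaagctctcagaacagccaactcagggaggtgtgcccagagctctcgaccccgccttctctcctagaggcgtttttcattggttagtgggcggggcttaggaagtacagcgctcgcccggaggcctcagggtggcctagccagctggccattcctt

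The Stat2 window held the response element core TTTCAGTTTC, which began 222 bases before the start, and TTCCCTAGAA, which began 210 bases before it. The Stat3 window held no match to these letters. Over 32851 mouse promoters of the same length, 2.98% held the response element core, 7.02% the GAS element and 5.85% the variant. A Stat4 promoter held the core GAAAGTGAAA 97 bases before its start, and no other listed promoter of the 6 genes held a match. A match is a description of the letters, and binding was not measured.

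Stat5a and Stat5b encode closely related proteins that carry the IL-5 signal. Stat5a had normalized counts of 1935, 1868 and 1909 in sham replicates 1 to 3 and of 1906, 1965 and 2169 in EV replicates 1 to 3. EV replicate 3 stood above the other 5 libraries, and EV replicate 1 lay within the sham range. The means were 1904 ± 33.7 and 2014 ± 138 (SD, n = 3 each). The log2 fold change was 0.08 (SE 0.07, 95% interval -0.08 to 0.24, edgeR adjusted p = 0.42), and with scaling by library size only its sign turned to -0.068. In percent the Stat5a interval ran from -5.28% to 18.1%.

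Stat5b had normalized counts of 7890.3, 7180.5 and 6751 in sham replicates 1 to 3 and of 6616, 7019 and 6694 in EV replicates 1 to 3. Sham replicate 1 was the highest, and the other libraries of both groups intermingled. The means were 7274 ± 575 and 6776 ± 214 (SD, n = 3 each), with a log2 fold change of -0.10 (SE 0.07, 95% interval -0.25 to 0.05, edgeR adjusted p = 0.28). With scaling by library size only, the Stat5b value was -0.25 (adjusted p = 0.0138), and without sham replicate 1 it was -0.033. In percent the Stat5b interval ran from -16.2% to 3.51%. Stat5a and Stat5b share part of their sequence: of the distinct 31-base words in their annotated transcripts, 11.5% of those of Stat5a also occur in Stat5b and 15.1% of those of Stat5b in Stat5a. Reads from shared words could be divided between them by the counting, so the sum was tested as well. The summed Stat5a and Stat5b count had a log2 fold change of -0.06 (SE 0.06, 95% interval -0.20 to 0.08, edgeR adjusted p = 0.48).

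Stat6, whose product carries the IL-4 and IL-13 signal, had normalized counts of 10593, 10219 and 9909 in sham replicates 1 to 3 and of 9504, 9651 and 9954 in EV replicates 1 to 3. EV replicate 3 was above the lowest sham library, so the groups overlapped. The means were 10240.3 ± 343 and 9703 ± 229 (SD, n = 3 each), a log2 fold change of -0.08 (SE 0.05, 95% interval -0.20 to 0.04, edgeR adjusted p = 0.30). The Stat6 call depended on scaling: by library size only its log2 fold change was -0.23 with an adjusted p of 0.00536. In percent the TMM interval for Stat6 ran from -12.8% to 2.96%.

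Stat4, known as the transducer of IL-12 in T cells and natural killer cells, was the lowest of the 6. Its normalized counts were 168, 151 and 196 in sham replicates 1 to 3 and 212, 199 and 183 in EV replicates 1 to 3. The groups overlapped, with sham replicate 3 above EV replicate 3. The log2 fold change was 0.20 (SE 0.19, 95% interval -0.21 to 0.62, edgeR adjusted p = 0.44). In percent the Stat4 interval ran from -13.7% to 53.9% and included no change. Of the distinct words of Stat4, 23.7% also lie in Gm28177, an overlapping noncoding gene on the same strand that has no row in the count table.

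**Figure D2:**
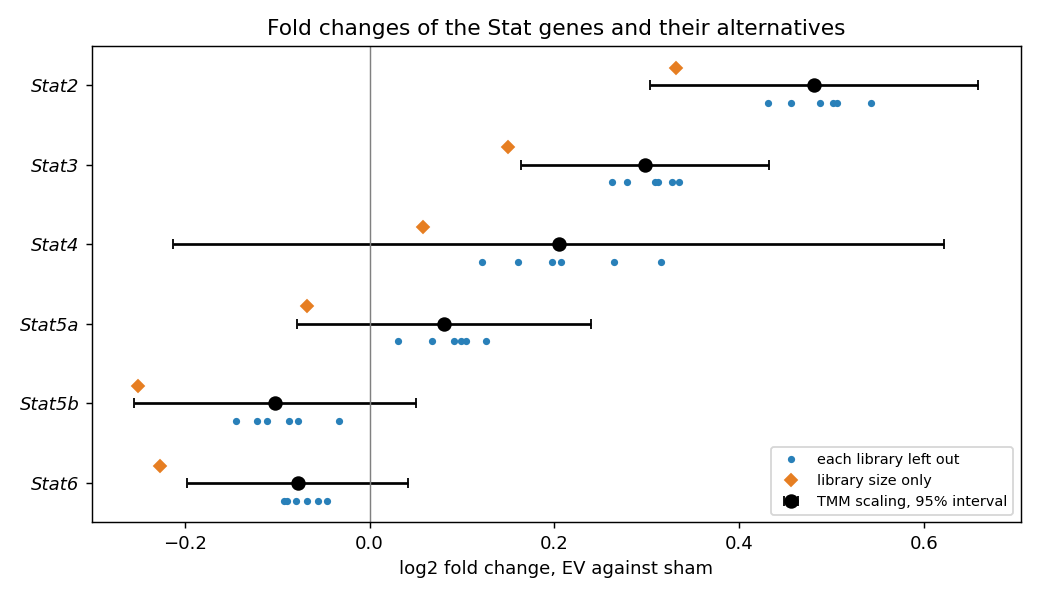
Log2 fold change of each STAT gene, EV against sham (horizontal axis), with large points for the estimate and bars for its 95% interval. Small dots show the fits with each library left out, and diamonds the fit with scaling by library size only. The intervals of Stat2 (0.30 to 0.66) and Stat3 (0.16 to 0.43) lie above 0, and those of the other 4 genes include 0.

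Levels can be compared between genes only per length, here as CPM, a count scaled to a common library size after TMM scaling, per kilobase of the longest annotated transcript. Stat6 was highest, at 87.9 ± 2.94 in sham and 83.3 ± 1.97 in EV, above 95.2% of the 12960 tested genes with a length. Stat5b followed at 45.2 ± 3.58 and 42.1 ± 1.33, and Stat3 at 31.4 ± 1.45 and 38.6 ± 1.30. Lower came Stat5a at 15.6 ± 0.28 and 16.5 ± 1.13, Stat2 at 10.4 ± 0.88 and 14.5 ± 0.55, and Stat4 at 1.86 ± 0.25 and 2.15 ± 0.16 (SD, n = 3 each). The order was the same in both groups, and no gene overlapped its neighbour in either group. After EV treatment the gaps between the 2 genes that rose and the genes next above them were narrow. The lowest Stat5b library in the EV group was at 41.1 CPM per kilobase and the highest Stat3 library at 40.0, and the lowest Stat5a library was at 15.6 and the highest Stat2 library at 15.1. The order of Stat3 and Stat5b rests on the transcript length used. Per kilobase of the median coding transcript, Stat3 was at 51.0 in sham and 62.7 in EV, above Stat5b at 45.9 and 42.7. Stat6 stayed highest on that length, at 151.4 and 143.4.

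**Figure D3:**
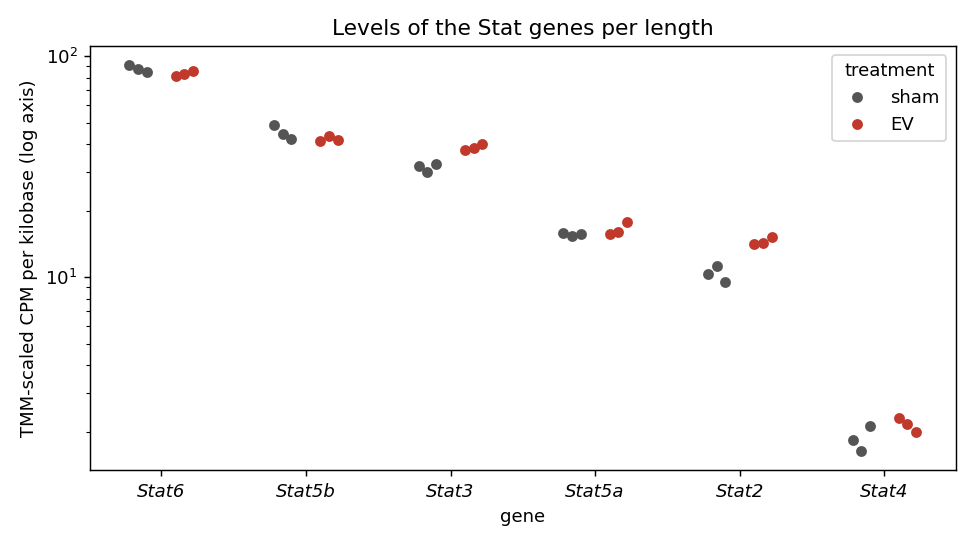
Level of each STAT gene on a log axis, in TMM-scaled CPM per kilobase of the longest transcript, with 1 point per library for sham and EV. Stat6 is highest and Stat4 lowest in both groups, and Stat2 and Stat3 are the genes whose EV points all lie above their sham points.

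As shares of the summed per-kilobase level of the 6 genes, which do not depend on scaling between libraries, Stat2 went from 5.40% in sham to 7.36% in EV and Stat3 from 16.3% to 19.6%. Stat6 went from 45.7% to 42.2% and Stat5b from 23.5% to 21.4%. For each of these 4 genes the sham and EV shares did not overlap, a count with no counterpart over all genes, since the shares are defined within these 6 genes. Stat5a (8.11% and 8.36%) and Stat4 (0.97% and 1.09%) did overlap. The shares sum to the whole, so a higher share of one gene lowers the others. The shares were taken per kilobase of the longest transcript only, and they depend on the transcript length used.

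The ratio of 1 STAT gene to another within a library does not depend on scaling either. Of the 15 pairs, 7 had log2 ratios that separated the EV from the sham libraries, against 56.7% of all pairs of genes with a mean normalized count of at least 100. These 7 were Stat2 and Stat3, each against Stat5a, Stat5b and Stat6, and Stat5a against Stat6. The largest difference was for Stat2 to Stat5b, whose log2 ratio was -2.49, -2.23 and -2.39 in sham replicates 1 to 3 and -1.78, -1.86 and -1.70 in EV replicates 1 to 3, a rise of 0.58. Stat3 to Stat6 rose by 0.38, from -0.84, -0.88 and -0.70 to -0.44, -0.43 and -0.42, and the EV libraries lay closer together than the sham libraries. Stat3 to Stat5b rose by 0.40. Stat2 to Stat3 differed by 0.19 and overlapped, so a larger rise of Stat2 than of Stat3 was not shown. Stat5a to Stat5b differed by 0.18 and overlapped, and Stat5b to Stat6 by -0.02. With 3 libraries against 3, an exact two-sided permutation test cannot go below p = 0.1, which all 7 separated pairs reached (adjusted p = 0.214 over the 15 pairs), so none could pass 0.05.

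**Figure D4:**
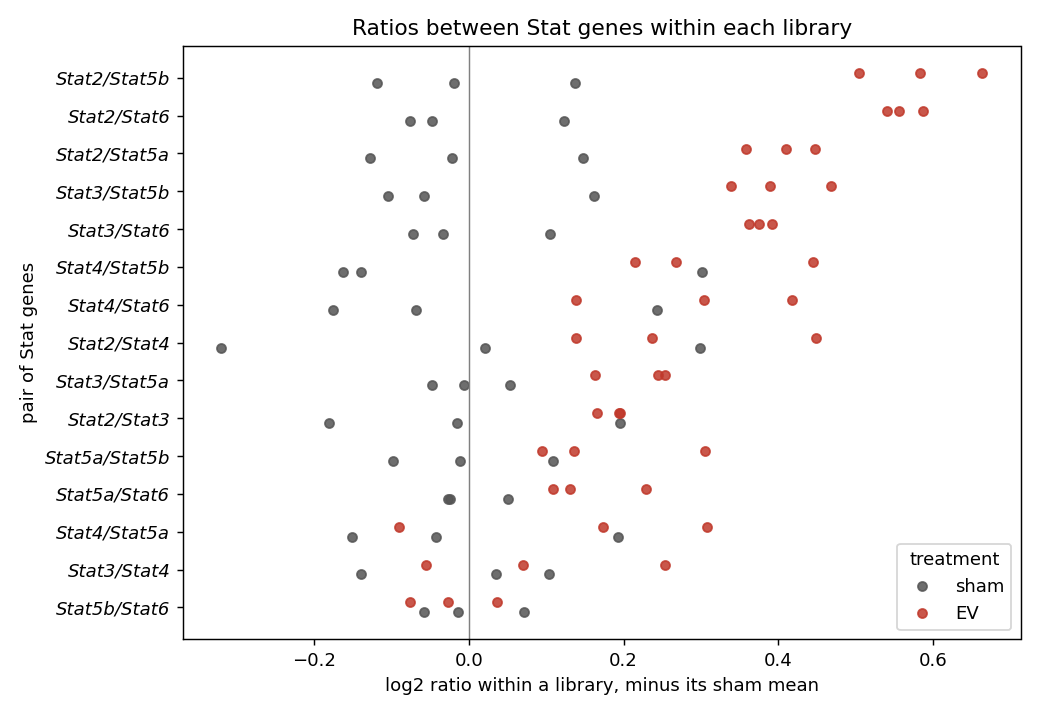
Log2 ratio of each of the 15 pairs of STAT genes within a library, minus the mean of the sham libraries (horizontal axis), with 1 point per library. The EV points of Stat2 and Stat3 against Stat5a, Stat5b and Stat6 lie to the right of the sham points, and those of Stat5b against Stat6 intermingle with them.

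In the genome (GRCm38, GENCODE M21), 3 of the genes form a cluster on chromosome 11. Stat5b, at chr11:100780731-100850724 on the minus strand, is 8626 bases from Stat5a at chr11:100859351-100885169 on the plus strand, and Stat3 follows at chr11:100885098-100939540 on the minus strand. Within this cluster Stat3 rose and its neighbours did not pass the test. The ends of Stat3 and Stat5a overlap by 72 bases on opposite strands. On chromosome 10, Stat6 lies at chr10:127642986-127660957 and Stat2 at chr10:128270559-128292849, both on the plus strand and 609601 bases apart. Stat6 overlaps the end of Nab2, on the opposite strand, by 40 bases. Nab2, which encodes a corepressor of EGR factors, fell with a log2 change of -0.83. Stat4 lies at chr1:51987148-52107189 on the plus strand, with no other member on its chromosome, and the noncoding Gm28177 overlaps it by 29929 bases on the same strand. Whether the counting used strand is not stated, so reads in the opposite-strand overlaps cannot be assigned.

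The other genes of JAK-STAT signaling were described from lists by role, which were also chosen with earlier results of these data known. Of 67 tested genes, 21 rose and 6 fell, against 12.1% higher and 11.6% lower among all genes tested, and their median log2 fold change was 0.17. Of the 4 Janus kinases, which phosphorylate the STATs, only Jak2 rose, with a log2 fold change of 1.41 (SE 0.05). The values for Jak1 (0.03), Jak3 (0.27) and Tyk2 (0.14) did not pass. Jak2 went from 5368 ± 160.3 to 14278 ± 250.3 normalized counts (SD, n = 3 each).

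The SOCS and CIS genes encode inhibitors of signaling, some of which are feedback inhibitors induced by STATs. The list split evenly. Socs1 rose with a log2 fold change of 5.10 (SE 0.19), Cish with 4.37 (SE 0.07), Socs3 with 3.77 (SE 0.10) and Socs2 with 2.49 (SE 0.12). Socs4 (0.28), Socs5 (0.21), Socs6 (-0.77) and Socs7 (-0.07) did not pass the test. The median of 1.39 for the whole SOCS and CIS list compares with 0.14 for the STAT genes. Past the threshold were 50% of this list and 25% of the Janus kinases, against 23.7% of all genes tested.

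Among the 4 PIAS genes, which encode nuclear inhibitors of STATs, Pias3 rose (log2 fold change 0.46, SE 0.08). Of 11 phosphatase and adaptor genes, 6 rose, among them Ptpn6, a phosphatase that dampens cytokine receptors (0.65), Ptprc (0.36) and the interferon-induced Usp18 (2.65). Sh2b2, which encodes a JAK-binding adaptor, fell with a log2 change of -2.18. Of 10 partner and coactivator genes, Irf9 and Ncoa1 rose, by 1.31 and 0.33 on the log2 scale. Irf9, the partner of Stat2, went from 957 ± 61.5 to 2373 ± 34.2 normalized counts (SD, n = 3 each). The share past the threshold was 25% for PIAS genes, 63.6% for phosphatases and adaptors and 20% for partners and coactivators. Among all genes tested it was 23.7%.

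Of 30 tested receptor chains, 7 rose and 5 fell, where 12.1% of all genes tested rose and 11.6% fell. Csf2rb, the common beta chain that IL-5, IL-3 and GM-CSF receptors use ahead of STAT5, rose with a log2 fold change of 1.41, and its near copy Csf2rb2 rose with 1.09. Reads of these near-identical genes may be divided by the counting, so their separate values are uncertain. The matching alpha chain Csf2ra rose by 0.27 (adjusted p = 0.00935), while Il3ra (-0.19) and Il5ra (-0.14) did not pass. Il4ra, the chain that recruits STAT6, rose by 1.22, and Il10ra, the receptor chain that uses STAT3, by 2.35. The 5 chains that fell were Il6ra (-2.70), Il7r (-2.15), Csf3r (-1.83), Il11ra1 (-1.17) and Ifnar2 (-0.67).

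**Figure D5:**
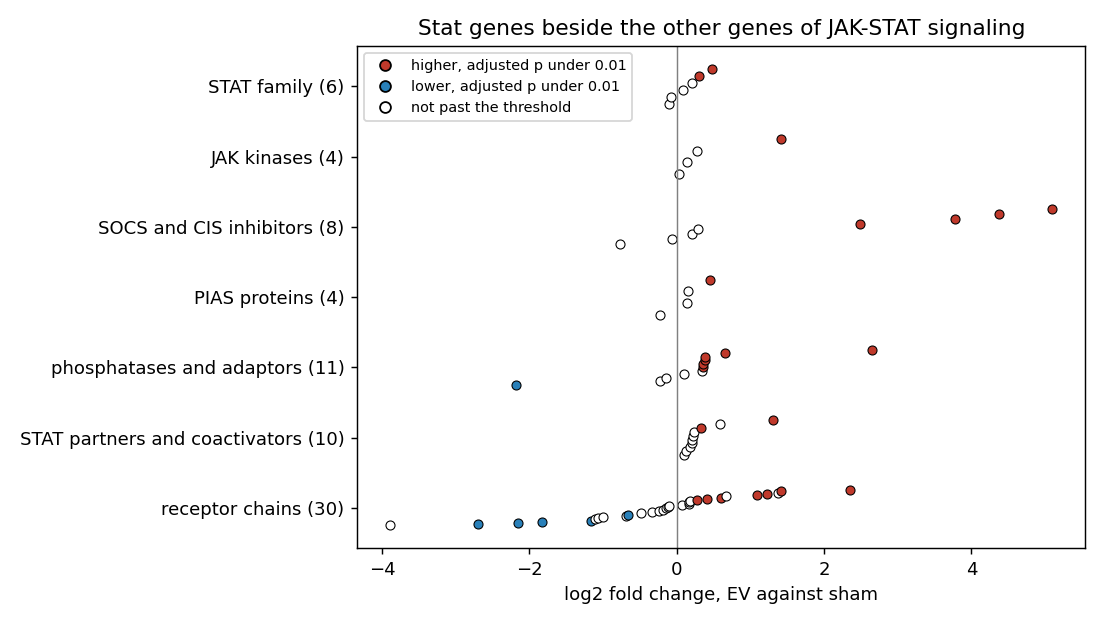
Log2 fold change, EV against sham (horizontal axis), of the STAT genes and of the genes in 6 lists by role, with 1 point per tested gene and the number tested in brackets. Filled points passed the adjusted p threshold of 0.01. The STAT genes lie between -0.10 and 0.48, and the SOCS genes reach 5.10.

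Genes known as targets of the individual STATs were listed as well, and the lists share members. They were chosen with earlier results of these data known, and some members, such as Socs1 and Pim1, were already reported as raised by the study. Their counts are therefore a description and no independent evidence. Their counts are to be read against the 23.7% of all genes tested that passed, 12.1% as higher and 11.6% as lower. Of 18 tested STAT2 targets, 6 rose, and those with the smallest adjusted p were Irf9 (1.31), Irf7 (2.07), Oasl2 (1.96) and Usp18 (2.65). The other 12 did not pass, some of them at low counts. Values in the STAT2 list ran from -0.71 to 2.65, with a median of 0.65. Of 19 STAT3 targets, 11 rose and 6 fell, with Pim1 (1.93) and Il1rn (1.49) higher and Bcl6 (-2.64) lower. Beside them, Stat2 and Stat3 themselves stood at 0.48 and 0.30.

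Of 13 STAT5 targets, 10 rose and 1 fell (median 1.37), with Osm at 3.34 beside Cish and Socs1, while Stat5a and Stat5b themselves did not pass. Of 15 STAT6 targets, 7 rose and 1 fell (median 0.76), among them Retnla (7.81, from 18.5 ± 12.4 to 4494 ± 670 normalized counts), Socs1, Egr2 (1.51) and Il4ra, which had the smallest adjusted p, while Stat6 did not pass. Ccl24, at 0 in every sham library, was at least 47.9-fold higher against a floor of 3 counts per library, and the STAT6 median was the same with Ccl24 at that bound. Of 6 STAT4 targets, Furin rose (1.15) and Gadd45g fell (-1.32), a count of 2 near that background. These lists were not tested as sets, and many of their genes answer to other factors.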

How the data were processed

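RNA was sequenced from 3 sham-treated and 3 EV-treated eosinophil samples, grouped and numbered by the sample labels. Per the submitters' processing notes and the methods, the authors used FastQC, Cutadapt, Salmon, DESeq2 and the mm10 genome. Versions, the annotation and strandedness are not given in the sources used here. The authors deposited estimated counts per gene from Salmon, which need not be whole, and normalized counts, a signal scaled by a size factor per sample. The authors' deposited comparison table holds log2 fold changes, p-values and a test statistic as a score, and was not used.

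The estimated counts were rounded and fitted with edgeR 4.0.16 in R 4.3.3 on all genes that passed filterByExpr, 13498 of 16254, with TMM scaling, the quasi-likelihood test and Benjamini-Hochberg adjustment. The threshold was an adjusted p under 0.01. Normalized counts are counts scaled by TMM to a library of geometric mean size. Each SE came from the log2 fold change and the F statistic (their size over its square root), and intervals are 95%. Within-library ratios used a pseudocount of 0.5 and an exact two-sided permutation test. With libraries of 23697620 to 37874426 counts, the lowest STAT gene, Stat4, had 123 to 232 estimated counts, so counting error matters most for it. Scripts were tested on simulated data.

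Alternatives were other scalings (DESeq2 size factors, upper quartile, library size), no filter, DESeq2 1.42.0, limma 3.58.1 on the deposited normalized counts with a pseudocount of 1, a replicate block, an adjusted p under 0.05, each library left out, Stat5a and Stat5b summed, and another transcript length. Gene models were from GENCODE M21, and promoters, found for all 6 genes, from RefSeq on GRCm38.p6. A normalized count of at least 100 was needed for the genes most like a member. Genes named were the 6 members, at most the 4 genes with the smallest adjusted p past the threshold in each list, the JAK, SOCS and common beta chain family receptor genes, the genes most like a member, and genes that overlap a member. Marker genes, Nab2, Gm28177, Ccl24 and the receptor chains that fell were named after their values were seen. Members and lists were chosen with earlier results of these data known. Results for another gene of the family are not reported here.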

Additional observations from a re-analysis of the deposited data

How the results depend on the processing

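Stat2 rose under every alternative run, and Stat3 kept its direction in all of them. Leaving out each library in turn gave 1 to 2 STAT genes past the threshold, 2089 to 3531 genes in all (the lowest without EV replicate 3), 19 to 31 genes of the JAK-STAT lists, and 7 to 10 STAT pairs whose ratio separated the groups. At an adjusted p under 0.05, 4840 genes passed, which follows from the looser threshold. Scaling by library size only gave 2 STAT genes, but these were Stat2 and Stat6, the latter lower. There Stat5a turned to a log2 fold change of -0.068, the cause of which was not tested, and the JAK-STAT lists had 14 genes higher and 12 lower, against 21 and 6. DESeq2 called 3930 genes and limma 3091, both with 2 STAT genes. Replicates with the same number in both groups had deviations that correlated at 0.10, 0.08 and 0.05, so the numbers were not taken as a pairing, although each sample correlated best with its own number. A fit with the replicate number as a block called 3575 genes, 31 of the JAK-STAT lists and 2 STAT genes. With 3 libraries a group, intervals for Stat4 were wide and changes of its size could not be detected at this depth.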

Other observations

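For each STAT gene, the 2 genes with the most similar pattern over the 6 libraries were read from log2 CPM as a description, among 10453 genes with a mean normalized count of at least 100. The 6 libraries fall into treatment groups, so these values follow group differences and the spread within groups together. Nod2 (r = 0.997) and Gpbp1l1 (r = 0.996) were closest to Stat2, and Lrp10 (r = 0.997) and Arpc1b (r = 0.995) to Stat3. Srp19 (r = 0.997) and Itfg1 (r = 0.987) were closest to Stat4, and Abhd17a (r = 0.977) and Brat1 (r = 0.967) to Stat5a. Pcbd2 (r = 0.997) and Heca (r = 0.994) were closest to Stat5b, and Ing4 (r = 0.998) and Cnpy3 (r = 0.996) to Stat6. No other STAT gene was among the 2 genes nearest to any of the 6. With 10453 genes and only 6 libraries, r values this high can arise by coincidence. An absence from 2 places among so many genes therefore says little about whether STAT genes vary together.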
